A study of Mus musculus with 6 samples.

Results

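The nuclear-encoded oxidative phosphorylation genes are the genes that make most subunits of the 5 protein complexes with which mitochondria turn nutrients into ATP. They were chosen by mouse gene symbol: names beginning with Nduf, Uqcr, Cox4 to Cox8 or Atp5, the genes Sdha, Sdhb, Sdhc and Sdhd, and Cyc1, without pseudogenes. The choice took 94 of the 24520 genes in the deposited tables, and 90 of the 94 were among the 14667 genes with enough counts to test. The 4 that were not tested were Cox7a1, Cox7b2, Cox8b and Cox8c, which are paralogs of complex IV subunits. Annotation placed all 94 among protein-coding genes, with 36 in complex I, 4 in complex II, 9 in complex III, 20 in complex IV, 16 in complex V and 9 encoding assembly or accessory factors.

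The libraries came from endothelial cells, the lining of blood vessels, purified from mouse lung by fluorescence-activated cell sorting. The labels name 3 libraries WT, for wild type, and 3 KO, for knockout of Dnmt3a, an enzyme that sets new DNA methylation. RNA was amplified from 10 ng with a SMARTer low-input kit and sequenced in 100-base pairs, per the labels' protocols. The sources used here name no allele, Cre driver, sort gate or age. They do not say whether each library is a separate animal, so p-values measure the spread between these libraries. Sex-linked counts, given below, differed between replicate 1 and replicates 2 and 3, so the libraries of a label do not all come from the same animal. Whether replicates 2 and 3 of a label are separate animals is not known, and part of the spread may be technical. No treatment is named for either group.

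In this pathway, complex I takes electrons from NADH and complex II takes them from succinate, and both pass them to coenzyme Q. Complex III hands the electrons to cytochrome c, complex IV passes them to oxygen, and complex V, the ATP synthase, makes ATP from the proton gradient that complexes I, III and IV build. Lung endothelial cells are known to draw much of their ATP from glycolysis, and their mitochondria also serve in biosynthesis and signalling. Subunits encoded by mitochondrial DNA were not analysed here.

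Dnmt3a (ENSMUSG00000020661, chromosome 12, 3806007 to 3914443 in mm10) went against the labels: it had 1235, 1079 and 1198 counts in the libraries labelled WT and 5090, 4878 and 4750 in those labelled KO. By edgeR's quasi-likelihood test the libraries labelled KO were higher by 2.22 on the log2 scale (SE 0.11, adjusted p = 0.00157). Every direction below is therefore that of libraries labelled KO over libraries labelled WT. Libraries held 28136194 to 39999172 counts. All 10 endothelial markers had counts in every library, with summed levels of 14089 to 17570 CPM (counts scaled to a common library total, by TMM factors that align library composition) under WT and 13873 to 16566 under KO. Markers of other lung cells varied within each label: alveolar epithelial type 2 markers ran from 344 to 9815 CPM under WT and from 796 to 3814 under KO. The fibroblast sum was higher in every library labelled KO (290 to 424 CPM against 138 to 193). Its markers Col1a1, Col1a2, Col3a1, Dcn and Inmt were each higher in every library labelled KO. Pdgfra did not follow, at 8.58, 11.3 and 6.84 CPM under WT and 6.63, 10.4 and 16.9 CPM under KO. Xist and Y-linked counts marked replicate 1 of each label as female and replicates 2 and 3 as male.

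The genes were abundant, as TPM, a level corrected for transcript length, shows. Over the 6 libraries, 64 of the 94 averaged at least 100 TPM and 10 averaged under 10 TPM. The median level was 211 TPM in complex I, 206 in complex II, 392 in complex III, 122 in complex IV with its paralogs, and 425 in complex V. The 9 assembly and accessory factors stood lower, with a median of 13.0 TPM. Cox4i1, the common form of a complex IV subunit, was the highest of all at 1162 TPM, and Cox8c, a testis form, was listed at 0. Complex IV spanned the widest range, and its symbols include tissue-restricted paralogs. Within complex I, Ndufa6, an accessory subunit, led at 486 TPM, whereas Ndufa13, also an accessory subunit, stood at 0.738 TPM with 8 to 33 counts in a library. Whether reads of Ndufa13 were assigned to another annotated gene was not tested.

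**Figure D1:**
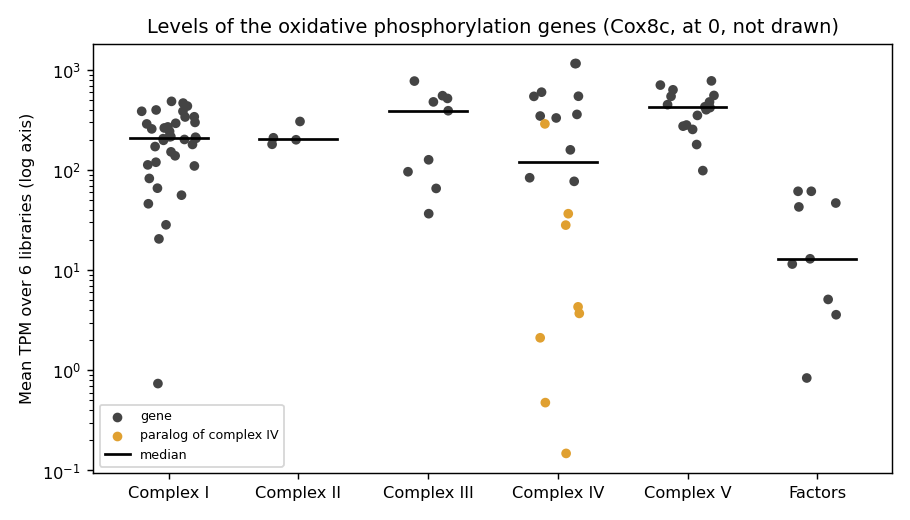
Mean TPM over the 6 libraries for each gene (log axis), by respiratory complex, with the median of each complex as a line and complex IV paralogs in orange. Most subunits lie above 100 TPM, while the assembly factors and most paralogs lie lower, and Cox8c at 0 is not drawn.

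Promoter sequence was compared because the genes varied together across libraries, as shown further on, and because Dnmt3a methylates CpG dinucleotides. Whether promoter sequence has a part in that variation was not tested. RefSeq (GRCm38.p6) gave a promoter, 250 bases before to 50 after the first-listed start, for 76 of the 94 genes. These promoters held a median of 20 CpG dinucleotides (range 2 to 43), against 7 over all 27025 promoters, and 72 of the 76 (94.7%) held at least 10 CpG, against 43.9% of all. Both strands were searched for 5 motifs. The motif of NRF1, a known activator of respiratory genes, spelled GCGC, any base and TGCGC, was in 18 of the 76 (23.7%) and in 4.78% of all promoters. CCGGAAG, the core bound by ETS factors, was in 22.4% against 9.12%, AAGATGG of YY1 in 14.5% against 6.48%, GGGCGG of Sp factors in 46.1% against 35.9%, and ACGTG, the hypoxia response core, in 25% against 19.7%. The background held promoters of all genes, whatever their level in these cells, and was not matched for level or CpG content. The NRF1 motif itself contains CpG. A match describes letters in a window, not a bound site, and methylation was not analysed here. The 200 bases upstream of the RefSeq start, written 5′ to 3′ along each gene's strand, are shown for 4 genes, with NRF1, ETS, YY1 and Sp matches in capitals. Cox5a (chr9:57521032-57521231, plus strand) had the highest fold change among the genes at 10 CPM or more, and Ndufb8 (chr19:44555443-44555642, minus strand) had the smallest p. Cox6a1 (chr5:115348959-115349158, minus strand) was the highest-level gene with an NRF1 match in the window, and Cox8b (chr7:140900447-140900646, minus strand), a muscle form, was nearly absent from these cells.
Cox5a: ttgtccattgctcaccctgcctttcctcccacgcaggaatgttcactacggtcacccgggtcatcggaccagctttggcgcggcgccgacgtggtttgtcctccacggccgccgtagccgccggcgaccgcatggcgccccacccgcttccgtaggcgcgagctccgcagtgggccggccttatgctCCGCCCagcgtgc
Ndufb8: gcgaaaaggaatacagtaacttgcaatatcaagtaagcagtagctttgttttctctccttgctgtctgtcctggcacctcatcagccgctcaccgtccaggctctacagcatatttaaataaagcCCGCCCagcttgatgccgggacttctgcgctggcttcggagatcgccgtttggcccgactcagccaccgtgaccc
Cox6a1: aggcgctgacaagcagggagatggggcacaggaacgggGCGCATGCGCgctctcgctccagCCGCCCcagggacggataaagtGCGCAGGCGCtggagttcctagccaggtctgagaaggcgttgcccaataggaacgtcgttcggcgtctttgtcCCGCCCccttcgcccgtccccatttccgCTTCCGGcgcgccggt
Cox8b: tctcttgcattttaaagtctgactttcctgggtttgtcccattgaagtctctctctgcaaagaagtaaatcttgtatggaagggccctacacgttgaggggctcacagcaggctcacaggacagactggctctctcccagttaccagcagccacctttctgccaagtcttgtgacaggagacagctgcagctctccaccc
The Cox6a1 stretch held 23 CpG, NRF1 matches at 2 places, an ETS match at its downstream end and 2 Sp matches. The stretches of Cox5a and Ndufb8 held 25 and 11 CpG with 1 Sp match each, and that of Cox8b held 1 CpG and no capitalised match.

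Across the whole list, transcript levels differed little between the labels, and most differences were small and negative. The test called 0 of the 90 genes at an adjusted p under 0.05 (edgeR, smallest adjusted p = 0.30), where it called 5 of all 14667 genes (0.0341%). DESeq2 also called 0 of the 90, against 2.65% of all genes. At an unadjusted p under 0.05, edgeR marked 4 of the 90 (4.44%), against 12.6% of all genes, and DESeq2 marked 8 (8.89%), against 14.3% of all genes, so both shares were below those of all genes. The 4 of edgeR were Cox5a and Cyc1, with higher values (6.88% of all genes), and Ndufb8 and Ndufs1, with lower ones (5.77% of all genes). The median log2 fold change was -0.16, a ratio of 0.898, against 0.01 over all tested genes, and 78 of the 90 values were negative, against 49.1% of all genes. With library size alone as scaling, 70 of 90 were negative, and on the log2(TPM + 1) scale 63 of 89, with a median of -0.08 where all genes had 0.06. Without WT replicate 3, the median was also -0.08, with 65 of 91 negative.

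Most values were small: 67 of the 90 (74.4%) lay within 0.25 of 0 on the log2 scale, against 7556 of all 14667 (51.5%). That background was not matched to the list for level. In the 10 wider lists given below the share ran from 50% (regulators of mitochondrial biogenesis) to 98.7% (cytosolic ribosomal proteins). Among the 78 genes at 10 CPM or more, fold changes ran from -0.38 to 0.53, ratios of 0.767 to 1.44, with a median SE of 0.13 for a single gene. The libraries of the groups did not overlap in CPM for 13 of the 90 (14.4%), against 20.3% of all genes. In 11 of these every library labelled KO was lower (12.2%, against 9.42% of all genes), and in 2 every such library was higher (2.22%, against 10.9%). Among the 11 were Ndufa2, Ndufb8, Ndufb10, Ndufs1, Sdhc, Uqcrc2, Cox7a2, Atp5f1, Atp5o and Atp5s, and the 2 were Cox5a and Cyc1. In TPM the counts were 9 lower (6.37% of all genes) and 2 higher (13.8% of all genes).

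**Figure D2:**
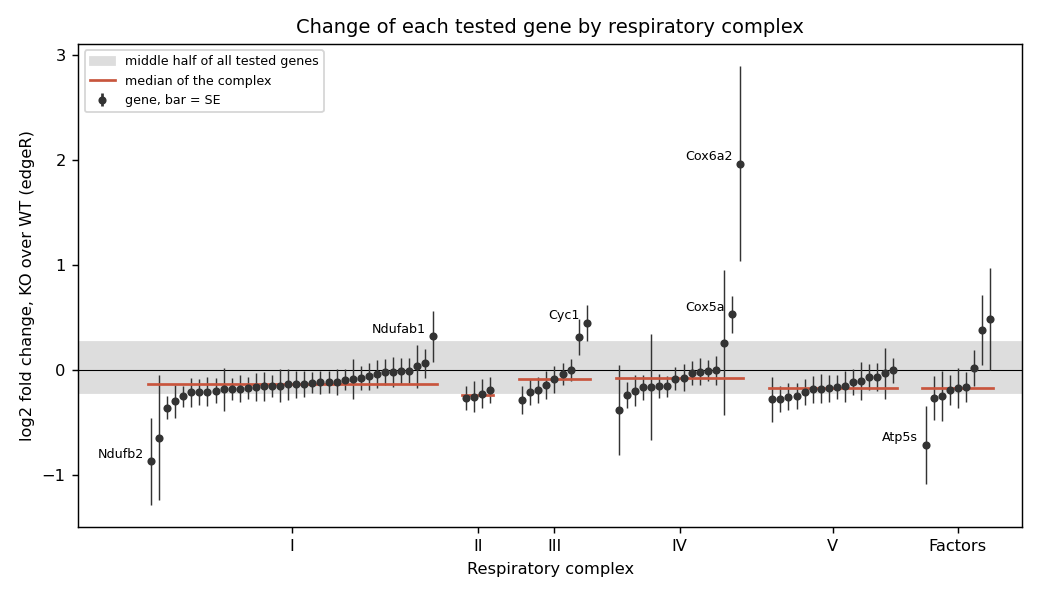
Log2 fold change of each tested gene (libraries labelled KO over WT, edgeR, bars are SE), sorted within each respiratory complex, with the median of each complex in red and the interquartile range of all tested genes in grey. The medians of all complexes lie below 0, and Cox5a, Cyc1 and the low-count Cox6a2 and Ndufaf5 stand highest.

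The level of the list varied between libraries of the same label. Relative to each gene's mean over the 6 libraries, the median deviation in log2 CPM was 0.07, -0.06 and 0.17 under WT (replicates in numerical order, here and throughout) and -0.12, -0.11 and 0.05 under KO. In CPM, WT replicate 3 was highest, with 81 of 90 genes above their own mean, and KO replicate 2 had the fewest, 15 of 90. KO replicate 3 had 62 of 90 above the mean, near the 64 of WT replicate 1, whereas WT replicate 2 had 27, so the groups overlapped. On the log2(TPM + 1) scale the list's medians were 0.06, -0.05 and 0.07 under WT and -0.03, -0.09 and 0.07 under KO. There KO replicate 3 was level with WT replicate 3. In CPM the median over all tested genes stayed between -0.01 and 0.01 in every library, which the TMM scaling largely sets. On the log2(TPM + 1) scale it ran from -0.08 in WT replicate 3 to 0.08 in KO replicate 1.

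Summed CPM of the 94 genes were 8767, 8653 and 9696 under WT and 7916, 7805 and 8611 under KO, which did not overlap. Summed TPM, in contrast, were 25980, 24073 and 25720 under WT and 24108, 22688 and 25548 under KO, which did overlap (25258 ± 1034 against 24115 ± 1430, SD, n = 3 each). The ratio of the group means was 0.897 in CPM and 0.955 in TPM. Transcript length and level moved with the fold change over all genes. The 684 tested genes whose longest transcript is at most 1000 bases had a median of -0.07, with 60.7% negative. The 825 above 8000 bases had 0.16, with 29.8% negative. The 40 genes of the list in the shortest class had a median of -0.15. The 9 genes of the list above 200 CPM had -0.20, against -0.08 for all 948 genes of that level (60.9% negative). At 50 to 200 CPM, where 46 genes of the list lie, 54.7% of all 3283 genes were negative. The part of length and level in the list's median was not tested. In bulk RNA, fewer cells of a type and less RNA per cell cannot be told apart.

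**Figure D3:**
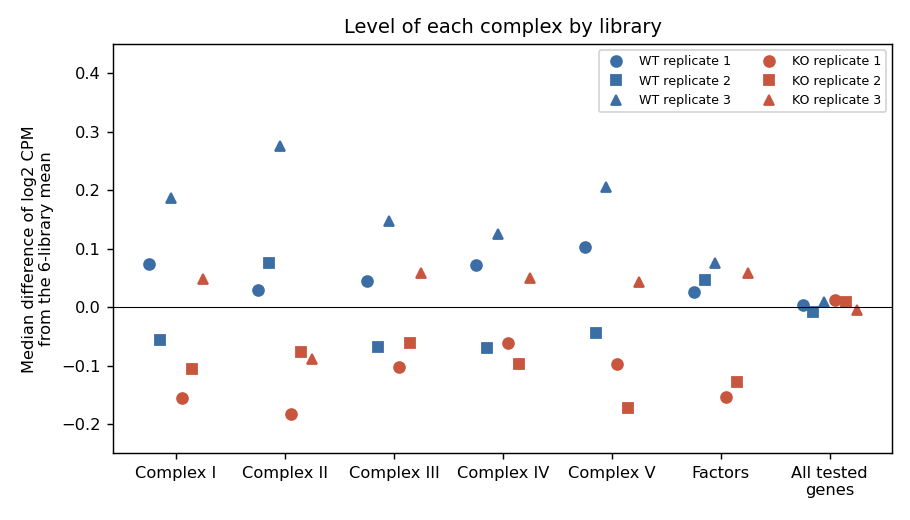
Median difference of log2 CPM from the 6-library mean for the genes of each complex and for all tested genes, by library, with WT labels in blue and KO labels in red. In complex II all libraries labelled KO lie below those labelled WT; in the other complexes KO replicate 3 lies among the WT libraries.

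In complex I, 33 of 36 genes had negative values, with a median log2 fold change of -0.14. Without WT replicate 3 the median was -0.09, and on the log2(TPM + 1) scale it was -0.07, with 26 of 35 negative. The 7 core subunits, which carry the electron path, were all negative (median -0.18), as were 26 of the 29 accessory subunits (median -0.14). None of the 36 passed the test. Ndufb8 (ENSMUSG00000025204, chromosome 19, 44548572 to 44555440), an accessory subunit of the membrane arm, stood at 106, 105 and 123 CPM under WT and 85.3, 84.5 and 90.1 CPM under KO. The groups did not overlap, with KO below WT (log2 fold change -0.36, SE 0.11, edgeR adjusted p = 0.30). This gene shares exon sequence with the overlapping gene Gm20538 on the same strand, so its counts are uncertain.

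Ndufs1 (ENSMUSG00000025968, chromosome 1, 63143596 to 63176833), the large iron-sulfur subunit of the electron-accepting arm, was at 88.1, 98.7 and 103 CPM under WT and at 78.2, 84.3 and 80.5 CPM under KO. Its groups did not overlap either (log2 fold change -0.25, SE 0.10, edgeR adjusted p = 0.38). Its exons overlap those of Eef1b2 and Ino80dos on the opposite strand, and the sources used here do not say whether the library preserved strand. Ndufb2, a small membrane-arm subunit, was low, at 6.51, 3.12 and 4.85 CPM under WT and 2.84, 1.62 and 3.45 CPM under KO, with overlapping groups and a value of -0.87 (SE 0.42, edgeR adjusted p = 0.424). Like Ndufb8, it overlaps another gene on its own strand, Gm42420. Ndufa6, the leader in TPM, was at 96.3, 88.6 and 102 CPM under WT and at 82.5, 104 and 99.3 CPM under KO, with a value of -0.01. Ndufa8, which faces the intermembrane space, was at 164, 137 and 178 CPM under WT and 126, 112 and 151 CPM under KO, with overlap and a value of -0.30 (SE 0.16, edgeR adjusted p = 0.45). The positive values in complex I belonged to Ndufb11, Ndufc2 and Ndufab1, the mitochondrial acyl carrier protein, whose value was 0.32 (SE 0.25).

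Complex II, succinate dehydrogenase, also a step of the tricarboxylic acid cycle, was the complex with the lowest median, -0.24 over its 4 genes (-0.15 without WT replicate 3). All 4 values were negative, between -0.27 and -0.19, and none passed the test. Summed TPM of the 4 genes were 912, 931 and 1002 under WT and 831, 848 and 870 under KO. No KO library reached a WT library in this sum, and the ratio of the group means was 0.896. In CPM the sums of complexes II, III and V did not overlap, with KO below WT, but those of III and V overlapped in TPM. The sums of the factors overlapped in CPM and not in TPM. Sdhc (ENSMUSG00000058076, chromosome 1, 171127165 to 171150603), a membrane anchor, stood at 121, 120 and 136 CPM under WT and 110, 92.6 and 110 CPM under KO, without overlap (log2 fold change -0.27, SE 0.12, edgeR adjusted p = 0.399). Sdhd, the other anchor, was at 141, 131 and 168 CPM under WT and 129, 131 and 126 CPM under KO, with a value of -0.19. Sdha, the flavoprotein that oxidises succinate, was at 290, 315 and 372 CPM under WT and 245, 312 and 262 CPM under KO. Sdhb, the iron-sulfur subunit, was at 160, 167 and 190 CPM under WT and 126, 149 and 167 CPM under KO. The groups overlapped for Sdha and Sdhb, whose values were -0.26 (SE 0.15) and -0.23 (SE 0.14). Without WT replicate 3, Sdha was at -0.15 and Sdhd at -0.08, and without KO replicate 1, Sdhb was at -0.13.

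Complex III had 3 positive and 6 negative values, with a median of -0.09 over its 9 genes, and none passed the test. The positive values were those of its 2 nuclear-encoded redox subunits, Cyc1 and Uqcrfs1, and of Uqcrb, at nearly 0; the difference between redox and accessory subunits was not tested. On the log2(TPM + 1) scale the median was -0.02, with 5 of 9 negative. Cyc1 (ENSMUSG00000022551, chromosome 15, 76343523 to 76346260), cytochrome c1, was at 33.0, 36.2 and 29.1 CPM under WT and at 53.7, 36.9 and 43.6 CPM under KO. Every library labelled KO was above every one labelled WT, though KO replicate 2 was only just so (32.8 ± 3.59 against 44.7 ± 8.50 CPM, SD, n = 3 each; log2 fold change 0.45, SE 0.17, edgeR adjusted p = 0.355). Uqcrfs1, the Rieske iron-sulfur protein, was at 24.0, 20.1 and 21.5 CPM under WT and 25.9, 23.2 and 32.5 CPM under KO, with overlap (log2 fold change 0.31, SE 0.17, edgeR adjusted p = 0.463). Cyc1 was at 0.29 without KO replicate 1, and Uqcrfs1 at 0.17 without KO replicate 3. Uqcrc1, a core protein of the matrix side, was at 434, 535 and 554 CPM under WT and 444, 396 and 409 CPM under KO. Its value of -0.29 (SE 0.13) came with overlap, because WT replicate 1 lay below KO replicate 1. Uqcrb, which binds next to the coenzyme Q site, was at 129, 116 and 127 CPM under WT and 118, 119 and 136 CPM under KO. Uqcrh, the hinge protein for cytochrome c1, was at 112, 98.7 and 105 CPM under WT and 94.9, 104 and 108 CPM under KO. For Uqcrb and Uqcrh the groups lay over each other. Leaving out 1 library put the complex's median between -0.19 (without KO replicate 3) and -0.04 (without WT replicate 3). It was -0.05 without KO replicate 2 and -0.15 without WT replicate 2, and -0.06 without KO replicate 1.

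**Figure D4:**
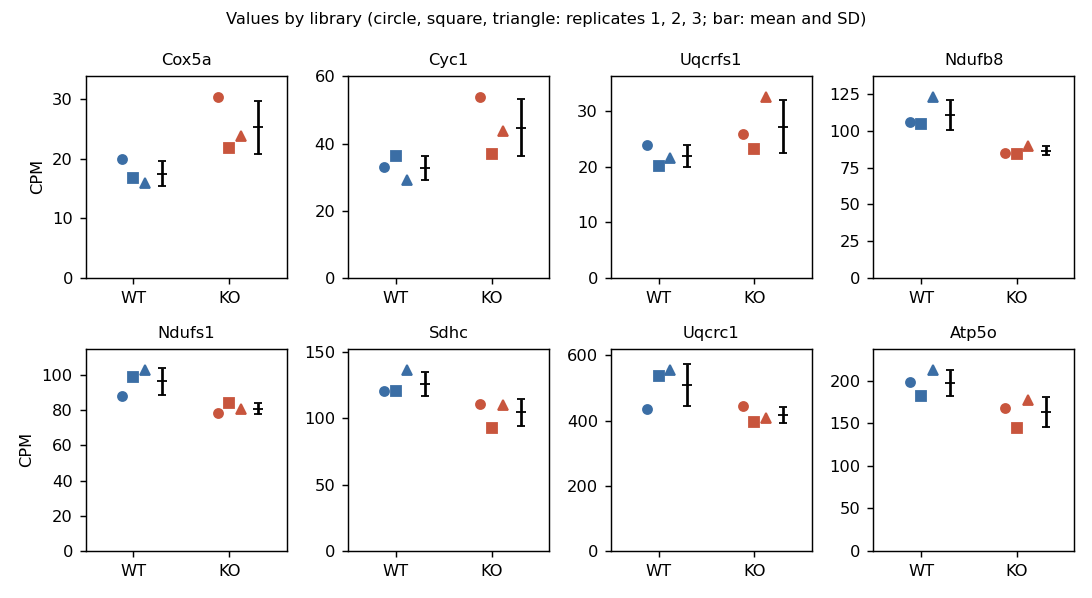
CPM in each library for 8 genes, with circles, squares and triangles for replicates 1, 2 and 3, and the mean and SD beside each group. Cox5a and Cyc1 are higher in every library labelled KO, Ndufb8, Ndufs1, Sdhc and Atp5o are lower in every one, and Uqcrfs1 and Uqcrc1 overlap.

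Among the 11 common subunits of complex IV, cytochrome c oxidase, 10 had negative values, with a median of -0.08. Cox5a was the exception, with the highest value among the genes of the list at 10 CPM or more. Cox5a (ENSMUSG00000000088, chromosome 9, 57521274 to 57532426), a subunit on the matrix side, stood at 20.0, 16.7 and 15.9 CPM under WT and at 30.3, 21.8 and 23.8 CPM under KO. All libraries labelled KO were above all labelled WT (17.5 ± 2.13 against 25.3 ± 4.47 CPM, SD, n = 3 each; log2 fold change 0.53, SE 0.18, edgeR adjusted p = 0.329). Exons of Cox5a overlap those of Gm26631 on the opposite strand. Cox4i1 was at 359, 333 and 372 CPM under WT and at 293, 305 and 350 CPM under KO, with overlap and a value of -0.17 (SE 0.12). Cox6a1 was at 211, 197 and 260 CPM under WT and at 177, 189 and 216 CPM under KO, again with overlap (-0.20, SE 0.15, and -0.07 without WT replicate 3). Cox7a2 was lower in every library labelled KO, at 95.4, 103 and 102 CPM against 110, 105 and 119 CPM (-0.16, SE 0.10). Ndufa4, first described with complex I and now placed in complex IV, was at 105, 87.5 and 107 CPM under WT and at 86.9, 75.8 and 90.9 CPM under KO (-0.24, SE 0.13). Cox7a2l, Cox7b and Cox8a lay close to 0, with values of -0.01 (SE 0.10), -0.02 (SE 0.13) and -0.08 (SE 0.11). The median of all 16 tested genes of the complex was -0.08, and it was 0.01 without WT replicate 3 and -0.04 without KO replicate 2. On the log2(TPM + 1) scale it was 0.00, with 9 of 17 negative, and 0.04 without a filter on low values.

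Tissue-restricted paralogs of complex IV subunits were measured at a few percent of their partners at most. Cox4i2, the lung and hypoxia form, was at 11.9, 6.53 and 19.4 CPM under WT and 11.9, 11.4 and 5.79 CPM under KO, which was 1.58% to 4.98% of Cox4i1 in TPM. Ndufa4l2, a hypoxia-induced relative of Ndufa4, was at 12.4, 8.02 and 19.9 CPM under WT and 18.0, 13.4 and 4.77 CPM under KO, or 1.79% to 7.03% of Ndufa4. Both genes were low in WT replicate 2 and KO replicate 3 and the groups overlapped. The same 2 libraries had the lowest sums of pericyte and smooth muscle markers: these 8 genes summed to 324, 108 and 459 CPM under WT and 559, 498 and 118 CPM under KO, all with counts in every library. Sums of alveolar type 1, alveolar type 2, macrophage and dendritic, and cardiac muscle markers were also lowest in these 2 libraries. The part of any of these cells in the Cox4i2 and Ndufa4l2 values was not tested. The log2 fold changes were -0.38 (SE 0.43) and -0.16 (SE 0.50), and they turned to 0.07 and 0.24 without WT replicate 3. That of Ndufa4l2 was also positive, 0.22, without KO replicate 3.

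The muscle forms were near the lower limit of detection, and 3 counts in a library were taken as the floor. Cox6a2 had 12, 2 and 8 counts under WT and 30, 43 and 4 under KO, a value of 1.97 (SE 0.93, edgeR adjusted p = 0.422) with overlap. Cox7a1 had 4, 9 and 4 counts under WT and 10, 16 and 7 under KO, and Cox8b had 0 in every WT library and 3, 3 and 0 under KO. A sum of 8 cardiac muscle markers was highest in KO replicate 2, at 107 CPM, and lay between 20.1 and 55.0 CPM in the other libraries. The markers did not all move together. Myl7, Tnnt2, Tnni3, Pln, Myh6 and Actc1 were highest in KO replicate 2. Ryr2, in contrast, was lowest there (0.0660 CPM), and Nppa was at most 0.517 CPM in any library. KO replicate 2 was also the highest library for Cox6a2 and Cox7a1, and the part of cardiac cells in these counts was not tested. Of the testis forms, Cox6b2 was at 0.974, 0.305 and 0.822 CPM under WT and 1.56, 0.528 and 0.440 CPM under KO, Cox7b2 had at most 3 counts in a library, and Cox8c had 0 counts in every library.

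**Figure D5:**
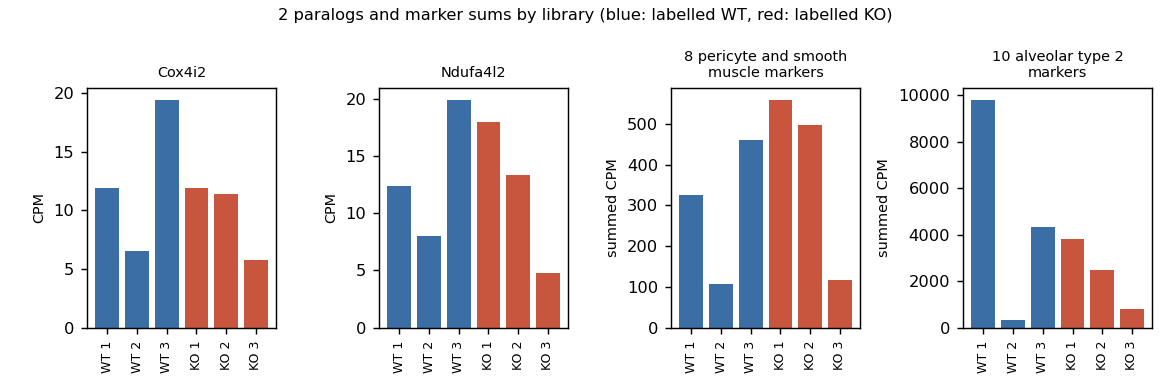
Levels by library of Cox4i2 and Ndufa4l2 (CPM) and summed CPM of 8 pericyte and smooth muscle markers and 10 alveolar type 2 markers, with WT labels in blue and KO labels in red. WT replicate 2 and KO replicate 3 are low in all 4 panels.

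Complex V, the ATP synthase, had 16 negative values of 16, from -0.28 to -0.01, with a median of -0.17, and none passed the test. Without KO replicate 2 the median was -0.10 with 13 of 16 negative, and on the log2(TPM + 1) scale it was also -0.10 with 13 of 16. In the main scaling values were alike in the F1 head, where ATP is made (median -0.17 over 5 genes), and in the stalk and membrane part (median -0.18 over 11). Atp5o (ENSMUSG00000022956, chromosome 16, 91925214 to 91931687), which joins the head to the stalk, was at 198, 182 and 212 CPM under WT and at 168, 144 and 177 CPM under KO. Its groups did not overlap (197 ± 15.1 against 163 ± 17.2 CPM, SD, n = 3 each; log2 fold change -0.28, SE 0.12, edgeR adjusted p = 0.411). The annotation lists a further gene entry named Atp5o over the same exons, so reads may have been divided between them. Atp5a1, the alpha subunit of the head, was at 572, 666 and 692 CPM under WT and 586, 492 and 539 CPM under KO, with a value of -0.26 (SE 0.13). KO replicate 1 exceeded WT replicate 1, so the groups overlapped. Atp5g1, Atp5g2 and Atp5g3 encode the same ring subunit, and their values were -0.16, -0.25 and -0.11. Atp5g1 was at -0.02 without KO replicate 2, and Atp5g3 at -0.01 without WT replicate 3. The leading gene of the 3 was Atp5g2, at 190, 179 and 211 CPM under WT and 163, 145 and 179 CPM under KO. Its highest KO library was level with its lowest WT library. Atp5h, a stalk subunit with the highest TPM in the complex, was at 217, 188 and 215 CPM under WT and 196, 192 and 230 CPM under KO, with a value of -0.01.

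The 9 factors caught by the symbols build or accompany the complexes without being lasting subunits. Their median was -0.17, with 6 negative and 3 positive values, and it was -0.10 without WT replicate 1, -0.10 without WT replicate 3, -0.09 without KO replicate 2 and -0.11 on the log2(TPM + 1) scale. Atp5s, a factor related to the ATP synthase, was low, at 5.45, 6.33 and 4.32 CPM under WT and 1.86, 3.67 and 4.27 CPM under KO. KO replicate 3 came close to WT replicate 3 without reaching it (log2 fold change -0.72, SE 0.37, edgeR adjusted p = 0.454, and -0.44 without KO replicate 1). Ndufaf1, an assembly factor of the complex I membrane arm, was at 8.12, 10.8 and 10.3 CPM under WT and 7.20, 7.89 and 9.21 CPM under KO, and its groups overlapped. Ndufaf3 was at 29.5, 32.6 and 39.5 CPM under WT and at 29.9, 28.9 and 30.1 CPM under KO, with a value of -0.19. Ndufaf8 was at 9.89, 8.80 and 12.3 CPM under WT and at 9.64, 6.67 and 9.79 CPM under KO, with a value of -0.25. Without WT replicate 3, Ndufaf3 was at -0.07 and Ndufaf8 at -0.10, and Ndufaf8 was at -0.09 without KO replicate 2. The positive values belonged to Ndufaf4, Ndufaf5 and Ndufaf6, of which Ndufaf5 averaged only 0.839 TPM.

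The wider mitochondrial machinery was counted in the same way, and edgeR called 0 genes in every list. DESeq2 called 5 of the 349 tested genes of the 10 lists, 1.43% against 2.65% of all genes (Surf1, Twnk, Sirt1, Vdac1 and Slc25a31, the last named after its values were seen). Of 44 tested assembly factors outside the symbol rule, 33 were negative (75%, against 49.1% of all genes; median -0.15). At an unadjusted p under 0.05 were 3 (6.82%, against 12.6% of all genes), all lower (5.77% of all genes). Surf1, an assembly factor of complex IV, was at 52.6, 43.7 and 53.1 CPM under WT and at 29.5, 32.5 and 28.6 CPM under KO. The groups were far apart, at -0.72 on the log2 scale (SE 0.13, edgeR adjusted p = 0.227), and DESeq2 called it (-0.73, adjusted p = 0.000659). Its exons overlap those of Surf2 on the opposite strand, and the sources used here do not say whether the library preserved strand. Of 35 tested import and nucleotide exchange genes, 26 were negative (74.3%; median -0.09) and 5 had an unadjusted p under 0.05 (14.3%), near the 12.6% of all genes. Vdac1, the main channel of the outer membrane, was at 230, 234 and 275 CPM under WT and at 164, 192 and 164 CPM under KO. Its groups did not overlap (log2 fold change -0.51, SE 0.13, edgeR adjusted p = 0.282, and adjusted p = 0.0119 with DESeq2).

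Of the 24 tested genes of the tricarboxylic acid cycle and pyruvate entry, 21 were negative (87.5%, against 49.1% of all genes), with a median of -0.15. At an unadjusted p under 0.05 were 2 (8.33%, against 12.6% of all genes). Idh3a, a subunit of the NAD-dependent isocitrate dehydrogenase, was at 92.3, 81.8 and 104 CPM under WT and at 74.3, 67.7 and 79.2 CPM under KO, without overlap (-0.33, SE 0.12, edgeR adjusted p = 0.354). Of 22 tested genes of electron carriers and coenzyme Q synthesis, 15 were negative (68.2%; median -0.14), with 1 at an unadjusted p under 0.05 (4.55%). Hccs, which attaches heme to cytochromes c and c1, was at 11.0, 10.9 and 10.1 CPM under WT and at 13.6, 13.2 and 18.0 CPM under KO. All libraries labelled KO were higher (0.49, SE 0.19, edgeR adjusted p = 0.362), the same direction as Cyc1. Exons of Hccs overlap those of Arhgap6 on the opposite strand. The 24 genes of mitochondrial DNA upkeep and expression divided into 12 negative and 12 positive, with a median of -0.03 and 2 at an unadjusted p under 0.05 (8.33%). Twnk, the mitochondrial DNA helicase, was at 10.4, 10.4 and 11.5 CPM under WT and at 5.11, 7.36 and 4.40 CPM under KO. Every KO library was lower (-0.94, SE 0.25, edgeR adjusted p = 0.292, and adjusted p = 0.0415 with DESeq2), and its exons overlap those of Mrpl43 on the opposite strand.

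Regulators of mitochondrial biogenesis had the opposite balance: 6 of 22 tested genes were negative (27.3%, against 49.1% of all genes) and 16 positive, with a median of 0.09. At an unadjusted p under 0.05 were 3 (13.6%, against 12.6% of all genes). Sirt1, a deacetylase that acts on the coactivator PGC-1alpha, was at 15.0, 14.2 and 9.52 CPM under WT and at 20.5, 22.9 and 23.4 CPM under KO. All libraries labelled KO were higher (0.78, SE 0.21, edgeR adjusted p = 0.286, and adjusted p = 0.0473 with DESeq2). Exons of Sirt1 overlap those of Gm16145 on the opposite strand. Epas1, the hypoxia factor abundant in lung endothelium, ran from 3474 to 4779 CPM under WT and from 3358 to 5836 CPM under KO, with overlap. The median longest transcript of the regulators was 4655 bases and that of the oxidative phosphorylation genes 1064 bases, classes for which the medians of all genes were 0.06 (4000 to 8000 bases) and -0.05 (1000 to 2000 bases). Mitochondrial ribosomal proteins were negative in 56 of 78 genes (71.8%; median -0.07, 6 at an unadjusted p under 0.05, or 7.69%), and cytosolic ribosomal proteins, also short and abundant, in 52 of 75 (69.3%; median -0.04, 0 at an unadjusted p under 0.05). Cristae genes were negative in 12 of 15 (80%; median -0.07, 1 at an unadjusted p under 0.05, or 6.67%) and genes of uncoupling and superoxide handling in 7 of 10 (70%; median -0.15, 0 at an unadjusted p under 0.05).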

How the data were processed

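RNA of sorted mouse lung endothelial cells was measured in 3 libraries labelled WT and 3 labelled KO, grouped and numbered by their titles. The authors deposited estimated counts per gene, without normalization, and the authors' TPM values, whose columns sum to 875864 to 885609. The submitters' processing notes name kallisto, without a version, and mm10; they name no annotation, strand setting or reason for the TPM sums. Symbols and coordinates came from GENCODE M21 on the same assembly, which named 24298 of 24520 identifiers, and promoters from RefSeq, GRCm38.p6.

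Estimated counts were rounded and tested in edgeR 4.0.16 (limma 3.58.1, R 4.3.3) with the quasi-likelihood test, TMM factors, filterByExpr and Benjamini-Hochberg adjustment over 14667 genes at 0.05, with no covariate. The SE is the size of the log2 fold change divided by the square root of F. The floor of 3 counts is 0.0796 to 0.102 CPM, for counting error only. Many of these genes have near-identical processed pseudogenes, to which a counter can divert reads. Of the 94, 29 share exon positions with a gene on the opposite strand and 5 with a gene on their own. Among genes with values given by library, the 29 include Ndufb2, Ndufs1, Uqcrb, Cox4i1, Cox5a, Cox6a2, Ndufa4l2, Atp5a1, Atp5o and Ndufaf3. On simulated counts for this comparison (14327 genes) the test found 36.7% of 98 genes with a 2-fold change and, at 4-fold, 77.6% of 98.

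Members and lists were chosen with earlier results of these data known. Values per library are given, within each complex, for the 3 genes with the smallest p, the 2 with the highest TPM, paralogs with their partners, and per wider list the gene with the smallest p or the highest TPM. Ndufa13, Ndufab1, Cox7b2, Cox8b, Cox8c, the genes named only as positive, as untested or as without overlap, and the cardiac markers were named after their values were seen. A gene withheld from the text is counted in the totals and not reported here by name. Alternatives were DESeq2 1.42.0, other scalings and filters, limma on log2(TPM + 1) and log2(TPM + 0.1), robust dispersions, a replicate block, a type 2 marker covariate and leaving out each library. Sex as a covariate, rescaled TPM and members without same-strand overlap were added after seeing the data. Every 2 libraries differed by more than sampling noise, with chi-square values per degree of freedom of 47.2 to 196.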

Additional observations from a re-analysis of the deposited data

How the results depend on the processing

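The count of oxidative phosphorylation genes past the threshold was 0 under every alternative run, with 1 to 8 at an unadjusted p under 0.05. Their median log2 fold change stayed negative throughout, between -0.20 and -0.07; leaving out each library gave -0.20 to -0.08. Summed TPM gave a log2 ratio of -0.07, -0.11 to -0.02 without 1 library and -0.06 with TPM rescaled. The count over all genes was 5, and 389 with DESeq2, 0 with the replicate block, 2 with sex as a covariate, 3 with limma on log2(TPM + 1) without a filter and 1 to 4 without 1 library; the cause was not tested. Correlations of same-numbered deviations were 0.28, -0.05 and -0.17, and WT replicate 2 and KO replicate 3 correlated most, at 0.36. With so few libraries per label, these values cannot decide whether replicate numbers pair the libraries. Sex followed the replicate number in both labels. With the replicate block the list's median was -0.15 and Dnmt3a had an adjusted p of 0.0679 in edgeR. Of 701 alternative values for 37 named genes of the list, 45 in 9 genes changed sign and none passed the threshold. In simulated data 36.7% of 2-fold changes, planted in genes drawn from all levels, were recovered. The share was not measured for the genes of this list, most of them abundant, with a median SE of 0.13. Every tested gene of the list except the low-count Cox6a2 differed by less than 2-fold.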
